A study of Mus musculus with 12 samples.

Results

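Peaks of RNA polymerase II that lay inside introns, far from any promoter, were examined in mouse microglia. A peak was taken where the deposited annotation placed it in an intron, where it lay more than 2000 bp from the nearest annotated transcription start site (TSS), and where it was not annotated as an LTR repeat. Of the 26706 peaks of Rpb2, the second largest subunit of RNA polymerase II, 9782 were annotated to an intron, 8012 of these lay beyond 2000 bp, and 482 were left out as LTR, which gave 7530 deep intronic peaks (28.2% of all Rpb2 peaks). Microglia, the resident macrophages of the brain, were sorted by the authors as CD11b+CD45lo cells from 2-mo-old mice on the C57BL/6J background. The *Cx3cr1*-WT mice carried both normal alleles, and the *Cx3cr1*-KO mice carried eGFP in place of the receptor gene on both alleles of the germline, so that loss of the receptor and presence of eGFP cannot be told apart. Each library came from 1 pool of 3 mice of the same gender, and each genotype had a female and a male pool by label (n = 2 pools per genotype). Chromatin immunoprecipitation with sequencing (ChIP-seq) recovers the DNA bound to a protein with an antibody, and reads gather where that protein sat. A second antibody recognized H3K27Ac, histone H3 acetylated at lysine 27.

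RNA polymerase II is loaded at promoters, pauses a short way downstream, and then travels through the gene, so that polymerase inside an intron can belong to transcription of the host gene. It is also loaded at enhancers, many of which lie in introns, where it makes short and unstable RNAs. H3K27Ac marks active promoters and enhancers, and in macrophages and microglia the factor PU.1 binds a large share of the enhancers, next to factors of the AP-1, C/EBP, MEF2, RUNX and IRF families. Some introns also hold short non-coding RNA genes with promoters of their own.

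The 4 Rpb2 libraries held between 11662185 and 44332626 reads, and the KO female library was the deepest. Peaks held 11.2% to 15.1% of these reads. In the peaks of 3 Y-linked genes, 136 reads came from the WT female library and 0 from the KO female library, so the gender label of the former is doubtful, and it is called the library labelled WT female. Among the 4 H3K27Ac libraries, peaks held 15.9% of the reads of the WT female and 61.1% to 65.3% of the reads of the others. The microglial markers *Cx3cr1*, *P2ry12*, *Tmem119*, *Csf1r*, *Sall1*, *Trem2* and *C1qa* each had an Rpb2 peak within 1000 bp of their TSS in the table, with levels between 5.37 CPM (reads scaled to 1000000 total reads of a library) for *Trem2* and 44.8 CPM for *Cx3cr1*. Of 37 markers of other brain and blood cells, 3 had one (*Mbp*, *Pecam1* and *Slc1a3*), and their summed level was 10.8 to 18.3 CPM, highest in the library labelled WT female. Only 5 of these 37 genes held deep intronic Rpb2 peaks, 10 peaks in all.

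Of 6 short motifs searched, the letters GAGGAAGT of PU.1 differed most in frequency between deep intronic peaks with and without H3K27Ac, as described further on, and 4 peaks that carry them are printed first. Each line gives the central 200 bases of a peak, 5′ to 3′ on the plus strand of GRCm38.p6 (the assembly of mm10), with the match in capitals. The first 3 are the highest deep intronic peaks of *Inpp5d*, which encodes the SHIP1 phosphatase of immune receptor signalling, of *Wasf2*, which encodes the WAVE2 regulator of actin, and of *Entpd1*, which encodes the ectonucleotidase CD39. The *Fam102b* peak has one of the lowest p values between genotypes, and its match reads on the other strand.

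Inpp5d intron 1, chr1:87625392-87625591: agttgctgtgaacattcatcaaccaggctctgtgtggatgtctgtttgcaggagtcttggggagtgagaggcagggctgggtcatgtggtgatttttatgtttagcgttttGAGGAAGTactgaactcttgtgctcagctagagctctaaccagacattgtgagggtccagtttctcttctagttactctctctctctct

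Wasf2 intron 1, chr4:133169634-133169833: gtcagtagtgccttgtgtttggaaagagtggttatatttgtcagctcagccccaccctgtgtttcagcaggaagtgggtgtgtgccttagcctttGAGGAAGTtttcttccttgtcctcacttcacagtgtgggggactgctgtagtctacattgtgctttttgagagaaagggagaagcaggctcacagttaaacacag

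Entpd1 intron 1, chr19:40637711-40637910: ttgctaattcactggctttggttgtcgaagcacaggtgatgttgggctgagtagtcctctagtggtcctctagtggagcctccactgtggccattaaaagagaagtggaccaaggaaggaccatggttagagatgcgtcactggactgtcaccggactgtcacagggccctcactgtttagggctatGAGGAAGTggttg

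Fam102b intron 1, chr3:109022253-109022452: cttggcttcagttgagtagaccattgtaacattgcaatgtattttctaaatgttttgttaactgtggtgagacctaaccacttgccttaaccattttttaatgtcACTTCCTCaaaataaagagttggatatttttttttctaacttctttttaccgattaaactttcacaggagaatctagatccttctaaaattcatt

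All of these peaks overlapped an H3K27Ac peak. For comparison, the next pair shows deep intronic peaks without H3K27Ac that were read in only one genotype or nearly so, in intron 4 of *Sult6b1*, which encodes a sulfotransferase, and in intron 13 of *Orc3*, which encodes a subunit of the origin recognition complex. None of the 6 motifs searched was found in these windows, so nothing is in capitals. The pair does not stand for all peaks without H3K27Ac. Of those, 19.8% held any of the 6 motifs, against 24.4% of deep intronic peaks with H3K27Ac.

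Sult6b1 intron 4, chr17:78891236-78891435: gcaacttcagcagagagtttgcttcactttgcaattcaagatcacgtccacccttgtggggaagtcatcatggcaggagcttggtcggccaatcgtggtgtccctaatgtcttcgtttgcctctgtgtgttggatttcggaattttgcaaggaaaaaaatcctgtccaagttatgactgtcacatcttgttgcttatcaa

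Orc3 intron 13, chr4:34583539-34583738: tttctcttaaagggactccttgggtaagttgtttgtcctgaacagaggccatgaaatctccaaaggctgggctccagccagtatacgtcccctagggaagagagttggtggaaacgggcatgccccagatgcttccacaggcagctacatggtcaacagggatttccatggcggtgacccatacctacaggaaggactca

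The 4 strongest deep intronic peaks all lay in introns 1 and 2 of *Tex14*, a gene known for its role in male germ cells. Each of them overlapped, by at least 1 bp, a short non-coding RNA gene of GENCODE that shares the intron. These were *Rnu1a1*, a U1 small nuclear RNA gene, and *Rnu3b1*, *Rnu3b3* and *Rnu3b4*, which encode the U3 RNA of ribosomal RNA processing. The centres of the peaks lay 178, 282, 261 and 273 bp from the starts of these genes, in the same order. U1 and U3 genes have RNA polymerase II promoters of their own, and they were not the TSS from which the deposited table measured the distance. The *Rnu1a1* peak (chr11:87422932-87423159) held 823 reads (library labelled WT female), 799 (WT male), 3043 (KO female) and 1339 (KO male). Its level was 69.7 CPM ± 9.22 (SD over the 4 libraries), or 306 RPKM (CPM per kb of peak). The *Rnu3b1* peak (chr11:87443384-87443655) held 529, 637, 2214 and 1118 reads in the same order and reached 52.4 CPM ± 10.3 (SD, 4 libraries). The *Rnu3b3* and *Rnu3b4* peaks reached 48.0 CPM ± 3.97 and 40.1 CPM ± 6.32. The central 200 bases of the U1 and the first U3 peak are shown, with no motif match to capitalize.

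Tex14 intron 1, Rnu1a1, chr11:87422945-87423144: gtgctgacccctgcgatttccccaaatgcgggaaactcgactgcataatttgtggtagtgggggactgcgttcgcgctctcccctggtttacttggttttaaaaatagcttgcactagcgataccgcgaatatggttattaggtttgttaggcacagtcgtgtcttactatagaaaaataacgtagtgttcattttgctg

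Tex14 intron 2, Rnu3b1, chr11:87443419-87443618: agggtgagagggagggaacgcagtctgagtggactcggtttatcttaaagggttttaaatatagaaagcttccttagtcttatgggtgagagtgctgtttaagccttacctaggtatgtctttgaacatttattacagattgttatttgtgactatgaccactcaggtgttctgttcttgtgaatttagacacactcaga

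The U3 genes are near copies of each other. Between 9.46% and 12.3% of the windows of 51 bases, the length of a read, in these 3 peaks were found in another of them, and since reads that mapped to more than 1 place were dropped, the level at each U3 copy is uncertain. No window of the *Rnu1a1* peak was found in the other 7 of the 8 highest peaks, none of which overlapped another U1 gene. Copies of U1 elsewhere in the genome were not searched, so its level may be uncertain too. A peak that overlapped a further copy, *Rnu3b2* (named after its value was seen), reached 23.7 CPM and did not overlap H3K27Ac.

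The next highest deep intronic peaks lay in protein-coding genes. A peak in intron 8 of *Rad51b* (chr12:79750219-79750731), whose product acts in DNA repair by recombination, held 330 and 487 reads in WT pools and 1713 and 798 in KO pools, which came to 37.7 CPM ± 8.27 (SD, 4 libraries). It lay 174258 bp from the nearest TSS. A peak in intron 1 of *Phospho1*, a phosphatase of bone mineralization, reached 33.3 CPM ± 7.70, and a peak in intron 16 of *Gfm2*, which encodes a mitochondrial translation factor, reached 33.0 CPM ± 4.47. A transcript of *Gfm2* itself starts 427 bp from this peak in GENCODE. The eighth, in intron 2 of *3110082I17Rik*, reached 31.1 CPM ± 5.22 and lay 2413 bp from *Mir339*. All of the 8 highest were in both the WT and the KO peak lists and overlapped H3K27Ac.

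Short RNA genes were rare among the weaker peaks. Over all 7530 deep intronic peaks, 17 overlapped a small nuclear, small nucleolar, micro or other short RNA gene of GENCODE, and 5 of these were among the 50 peaks with the highest mean CPM. Unlisted starts were more common. The centre of 1116 peaks (14.8%) lay within 1000 bp of the start of some GENCODE transcript, and the same held for 19 of the 50 highest. These 1116 peaks overlapped H3K27Ac about as often (64.0%) as the other 6414 (65.6%), and their median level was 6.35, 6.25, 7.55 and 10.04 RPKM in the same order of libraries, against 5.72, 5.58, 6.93 and 9.02 RPKM for the others.

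Deep intronic peaks were spread over 2225 host genes, the genes in whose introns they were annotated, and crowded into few of them. A host could be named for 7482 peaks. Of the hosts, 1140 held 1 peak, and 155 held 10 or more, which together took up 41.5% of all deep intronic peaks. For 2263 peaks, the nearest TSS belonged to a gene other than the host. The hosts with the most peaks were *Srgap2* with 82, *Mertk* with 73, *Inpp5d* with 70, *Itgb5* with 65, *Tanc2* with 61, and *Frmd4a* and *Pag1* with 59 each. *Srgap2* encodes a regulator of membrane shape, *Mertk* a receptor kinase for the uptake of apoptotic cells, *Itgb5* an integrin subunit, *Tanc2* a scaffold protein, and *Pag1* an adaptor that recruits the kinase Csk.

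Hosts differed widely in how many of their peaks overlapped H3K27Ac. In *Mertk*, 63 of 73 peaks did, and in *Itgb5* 55 of 65. In *Inpp5d* it was 36 of 70, in *Srgap2* 47 of 82, and in *Tanc2* 5 of 61. Among the 55 hosts with 20 or more peaks, the share ran from 2% to 100% with a median of 57.3%, and 7 hosts were below 25% and 13 above 75%. At the extremes, chosen after their values were seen, were *Plxdc2* with 1 of 50, and *Cttnbp2nl* with 29 of 29, *Adap2* with 20 of 20 and *Slco2b1* with 21 of 21.

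**Figure D1:**
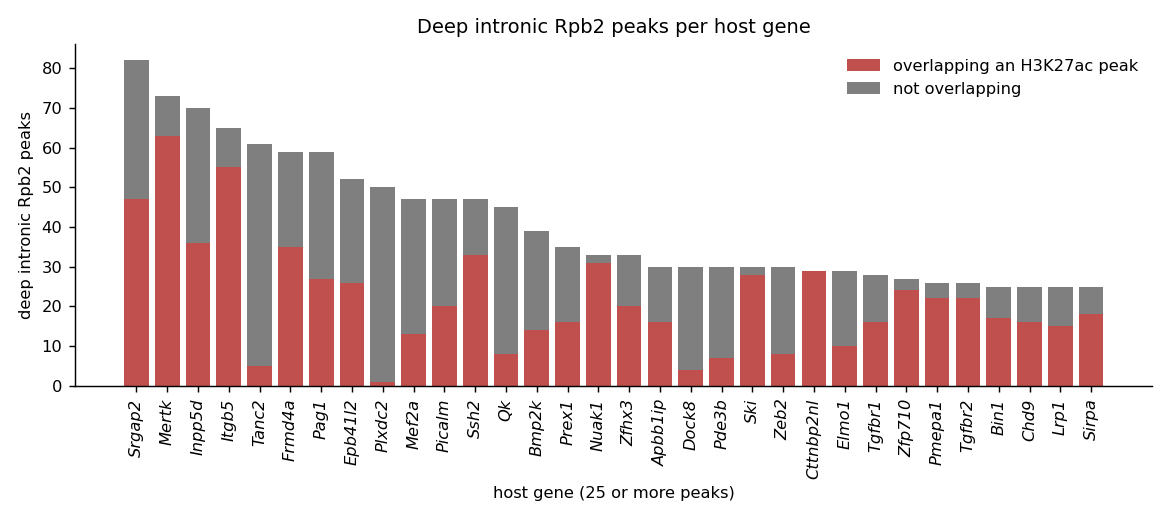
Number of deep intronic Rpb2 peaks (vertical axis) in each of the 32 host genes with 25 or more (horizontal axis), divided into peaks that overlapped an H3K27Ac peak and peaks that did not. *Mertk* and *Itgb5* are almost filled by overlapping peaks, and in *Tanc2* 5 of 61 overlap.

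The peaks of *Mertk* and of *Tanc2* show both arrangements. In *Mertk*, on the plus strand of chromosome 2 (chr2:128698956-128802894 in GENCODE), 73 peaks were placed from 2.02 to 101.9 kb from the start of a gene 103.9 kb long, with a median spacing of 1.11 kb. Their mean level over the 4 libraries had a median of 9.69 RPKM and ran from 4.37 to 31.6 RPKM. In *Tanc2* (chr11:105589986-105929304), 61 peaks ran from 2.05 to 330.5 kb along 339.3 kb, with a median spacing of 2.83 kb and a median level of 5.07 RPKM. The first of these, 2.05 kb from the start, was also the highest at 17.3 RPKM and overlapped H3K27Ac. Past 158.4 kb, no *Tanc2* peak overlapped H3K27Ac.

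**Figure D2:**
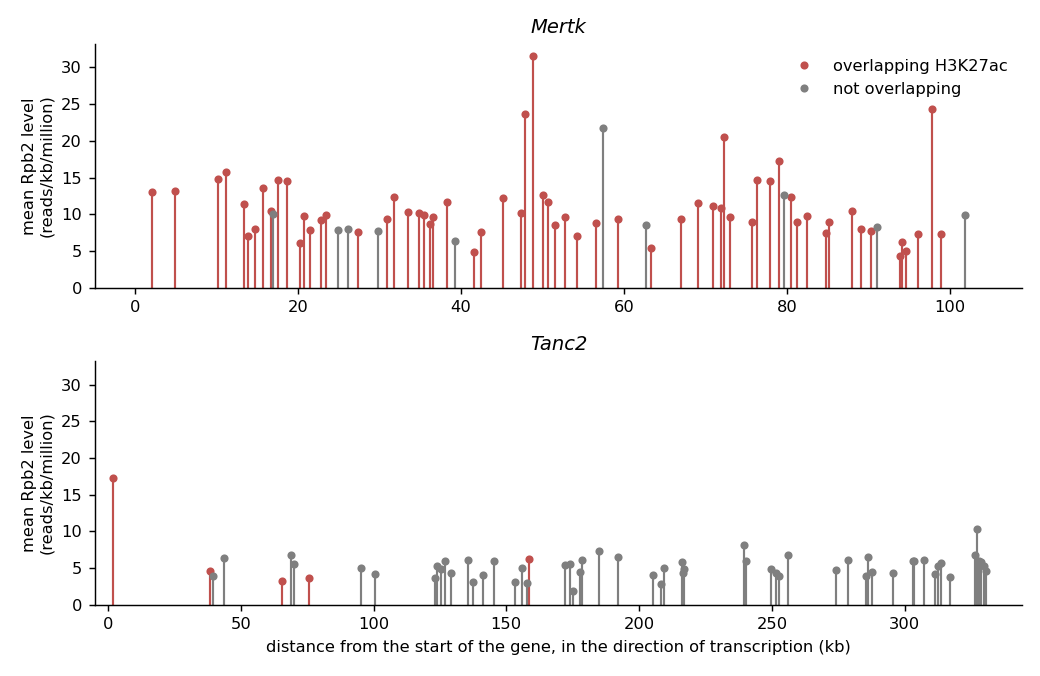
Each stem is 1 deep intronic Rpb2 peak, placed by its distance in kb from the start of *Mertk* (top) or *Tanc2* (bottom) and as high as its mean Rpb2 level over the 4 libraries in RPKM. Peaks that overlap H3K27Ac run along the whole of *Mertk*, whereas in *Tanc2* they are 5 of 61.

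Polymerase in the introns of these hosts was also set against polymerase at their promoters (peaks within 1000 bp of the TSS). In *Mertk*, deep intronic peaks held 5.40 and 3.99 reads per promoter read in WT pools (labelled female, male) and 4.69 and 6.03 in KO pools. In *Inpp5d*, the 4 values were 4.58, 4.42, 4.95 and 4.89. In *Pag1*, they were 4.41 and 3.497 in WT pools and 6.84 and 7.38 in KO pools, which did not overlap between genotypes. The genotypes overlapped for *Mertk* and not for *Inpp5d*, and neither these nor *Pag1* passed the test described further on (edgeR adjusted p = 0.650, 0.700 and 0.127).

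Intron position and distance went with H3K27Ac. The first intron held 2290 deep intronic peaks (30.4%), and 85.5% of these overlapped H3K27Ac, against 56.5% of the 5240 peaks in later introns. The order was the same in each band of distance. Up to 10000 bp from a TSS, 90.3% of 1194 first-intron peaks and 60.0% of 1291 later ones overlapped, between 20000 and 50000 bp it was 81.1% of 413 and 55.6% of 1660, and beyond 50000 bp 71.4% of 154 and 54.9% of 1169. Over all introns, the overlap was 79.9% up to 5000 bp, 56.4% between 50000 and 100000 bp and 57.9% beyond. The median distance was 17184.5 bp and the largest 444795 bp. Just outside the threshold, of 308 intronic peaks at 1501 to 2000 bp, 91.2% overlapped H3K27Ac, and just inside, of 239 at 2001 to 2500 bp, 89.96% did.

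In all, 4919 deep intronic peaks (65.3%, Wilson 95% interval 64.2 to 66.4) shared at least 1 bp with an H3K27Ac peak. For the 4843 intergenic Rpb2 peaks this share was 68.9%, and for the 10125 peaks within 1000 bp of a TSS it was 98.2%. The peaks were narrow, with a median width of 282 bp, and the H3K27Ac peaks they met were broad. These 2990 H3K27Ac peaks had a median width of 4026.5 bp, against 667 bp for all 55862, and 134 of them held 5 or more deep intronic Rpb2 peaks. The one with the most, 30, was 62893 bp wide and lay at chr7:80023106-80085998, over *Zfp710*.

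The PU.1 letters were more frequent in deep intronic peaks with H3K27Ac. GAGGAAGT, on either strand, was found in the central 200 bases of 310 of 4919 peaks with H3K27Ac (6.30%) and of 25 of 2611 without (0.957%), against 4.03% of all Rpb2 peaks and 3.05% of those within 1000 bp of a TSS. Of the 335 peaks that had it, 92.5% overlapped H3K27Ac. It was found in 6.64% and 1.201% of first-intron peaks with and without H3K27Ac, and in 6.08% and 0.922% of later ones. Beyond 20000 bp from a TSS, the shares were 5.82% and 0.866%. In peaks of both lists they were 8.17% of 1053 and 0.581% of 172. Intergenic Rpb2 peaks showed the same order, with 7.29% and 1.66%.

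The letters gathered at the centre of the peak. In peaks with H3K27Ac, there were 19.5 matches per 1000 peaks in the 50 bp on the higher-coordinate side of the centre and 3.86 in the 50 bp farthest from it on the other side, 500 bp away. In peaks without H3K27Ac, the 2 values were 1.92 and 1.53.

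**Figure D3:**
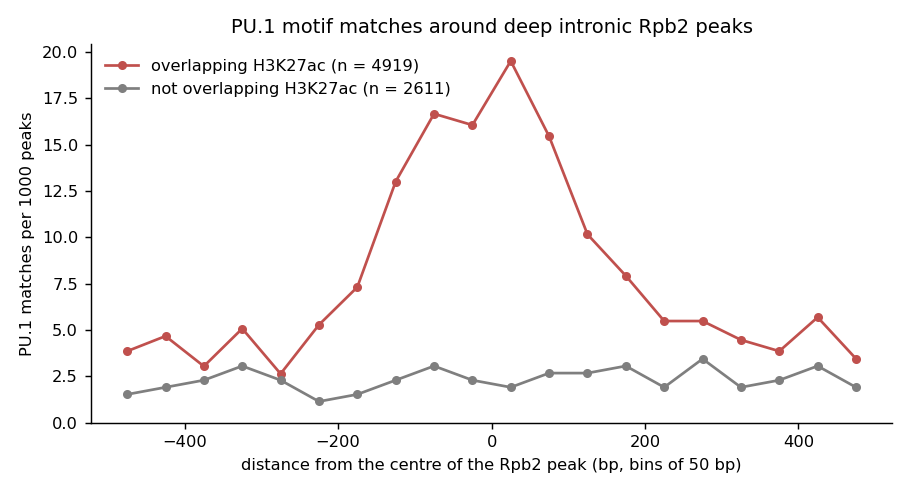
Matches to the PU.1 letters per 1000 deep intronic Rpb2 peaks (vertical axis) in bins of 50 bp around the centre of the peak (horizontal axis, bp on the plus strand), for peaks with and without H3K27Ac. Peaks with H3K27Ac reach 19.5 at the centre, and peaks without stay at 3.45 or lower in every bin.

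For the other motifs searched, the shares were closer. AP-1 (TGANTCA) was found in 6.30% of deep intronic peaks with H3K27Ac and 6.013% without, C/EBP (TTGNNCAA) in 3.78% and 3.56%, MEF2 (CTA and TAG with any 4 bases between) in 3.29% and 3.94%, RUNX (TGTGGTT) in 4.96% and 4.67%, and IRF (GAAA and GAAA with any 2 bases between) in 2.48% and 2.45%. In all Rpb2 peaks, these 5 were found in 4.62%, 3.21%, 2.67%, 3.85% and 2.25%. The share of G and C had a median of 51.0% in peaks with H3K27Ac and 46.5% in peaks without, and its part in these shares was not tested. A match to letters is not a bound site, and matches to different motifs may overlap.

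Polymerase was more abundant in deep intronic peaks that overlapped H3K27Ac. Their median level was 7.49 and 7.37 RPKM in WT pools (labelled female, male) and 8.50 and 11.3 RPKM in KO pools. Peaks without H3K27Ac had medians of 3.57, 3.58, 5.42 and 6.77 RPKM in the same order. The ratio of the 2 medians was 1.85 ± 0.267 (SD, 4 libraries) and lay between 1.57 and 2.10. Among the 1225 peaks of both lists, it was 2.35 ± 0.162. Medians of peaks within 1000 bp of a TSS that overlapped H3K27Ac were higher, at 18.7 to 23.4 RPKM. In peaks with both H3K27Ac and the PU.1 letters, the medians were 10.5, 9.42, 10.7 and 13.3 RPKM, and with H3K27Ac alone 7.38, 7.22, 8.33 and 11.2 RPKM. These are descriptions across peaks, which are not replicates.

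**Figure D4:**
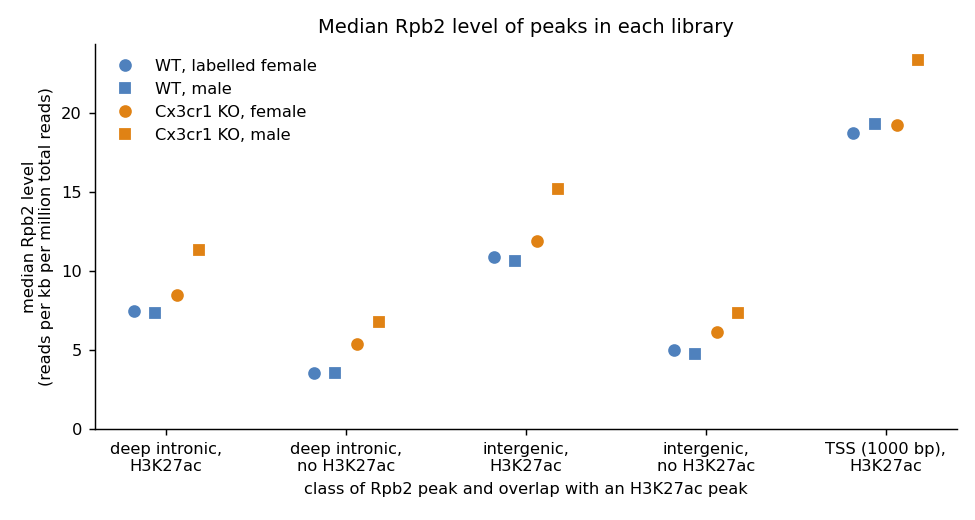
Median Rpb2 level in RPKM (vertical axis) of 3 classes of Rpb2 peak, divided by overlap with H3K27Ac (horizontal axis), with 1 point for each of the 4 libraries. In every library, the deep intronic peaks with H3K27Ac lie above those without, and the KO male library is highest in every class.

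Genes of microglial identity carried many deep intronic peaks, most of them acetylated. Of 30 homeostatic microglia genes, 24 were hosts, with 304 peaks of which 81.9% overlapped H3K27Ac, and their medians of 9.68, 8.73, 10.2 and 13.3 RPKM stood above those of all deep intronic peaks (5.79, 5.67, 7.03 and 9.15 RPKM). *Mertk* led, followed by *Bin1*, which shapes membranes in endocytosis, with 25, the transporter gene *Slco2b1* with 21, and *Entpd1* with 19. TGF-beta receptors and SMADs, the pathway on which microglial identity rests, had 12 hosts of 28 genes and 125 peaks, of which 80.8% overlapped. Its hosts were led by the SMAD corepressor gene *Ski* with 28 of 30 peaks acetylated, *Tgfbr1* with 16 of 28, *Tgfbr2* with 22 of 26, and the gene of the inhibitor *Smad7* with 11 of 12.

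In 4 of the other lists, between 48.6% and 60.1% of the peaks were acetylated. Myeloid transcription factors had 25 hosts of 40 genes and 260 peaks (52.7% acetylated), among them *Mef2a* with 13 of 47, *Zfhx3* with 20 of 33, *Zeb2* with 8 of 30 and *Ikzf1*, the gene of the lymphoid and myeloid factor Ikaros, with 7 of 22. Genes of phagocytosis and the cytoskeleton had 30 hosts of 40 and 286 peaks (48.6%), with 4 of 30 in *Dock8*, an activator of Cdc42, 10 of 29 in *Elmo1*, an engulfment factor, and 19 of 23 in *Wasf2*. Endosome and lysosome genes had 24 hosts of 42 and 210 peaks (55.7%). In this list, 22 of 23 peaks of *Lgmn* (legumain) but 4 of 21 of *Ctss* (cathepsin S) were acetylated, and *Picalm* and *Lrp1*, of clathrin-dependent uptake and lipoprotein uptake, had 20 of 47 and 15 of 25. Immune receptor signalling had 27 hosts of 46 and 233 peaks (60.1%), including the Src-family kinase gene *Lyn* with 15 of 22, *Akap13* with 15 of 21, and the adaptor gene *Pik3ap1* with 11 of 13. Markers of other brain and blood cells had 10 peaks in 5 genes, of which 9 were acetylated, with medians of 3.66 and 4.65 RPKM in WT pools and 6.98 and 9.71 in KO pools.

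*Cx3cr1* itself held 7 deep intronic peaks, all in the single intron of its annotated transcript, between 3406 and 13220 bp from the TSS, and all inside 1 H3K27Ac peak 47717 bp wide. Summed, they held 85.3 and 65.0 CPM in WT pools and 80.4 and 74.2 CPM in KO pools, and the genotypes overlapped. The lowest adjusted p of the 7 was 0.378 (edgeR). The reads of these peaks relative to the promoter differed by 0.16 ± 0.26 (log2, SE) between genotypes, with an adjusted p of 0.760 (edgeR).

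Whether deep intronic polymerase changed with the loss of *Cx3cr1* was tested on the read counts of all 26706 Rpb2 peaks, with the quasi-likelihood F test of edgeR and p values adjusted (Benjamini-Hochberg) over the whole table. No deep intronic peak passed an adjusted p of 0.05, and 2 peaks of the whole table did (0.00749% of those tested). The lowest adjusted p of a deep intronic peak was 0.162. At an unadjusted p under 0.05 there were 1068 deep intronic peaks (14.2%), 724 higher and 344 lower in KO microglia, where all Rpb2 peaks gave 12.2%, with 6.12% higher and 6.06% lower. DESeq2 called 329 deep intronic peaks (4.37%, against 3.83% of all Rpb2 peaks) and the newer quasi-likelihood method of edgeR called 94 (1.25% against 1.02%). With at least 10 reads in every library, 6 were called (0.137% against 0.151%). Leaving out a WT pool gave 902 calls without the library labelled WT female (12% against 8.28%). Without the WT male it gave 890 (11.8% against 7.35%). The spread between pools of a genotype then came from the KO pools alone, and the cause of these counts was not tested. Leaving out a KO pool gave 0, and turned the balance at an unadjusted p under 0.05 to 150 higher and 263 lower without the KO female, and to 148 higher and 232 lower without the KO male.

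The direction of these differences went with the list that held the peak. The authors called peaks for each genotype and merged the lists, and 5046 deep intronic peaks (67.0%) were in the KO list only, 1259 in the WT list only and 1225 (16.3%) in both, whereas 55.4% of peaks within 1000 bp of a TSS were in both. The median log2 fold change (KO over WT) was 0.70 for peaks of the KO list, -0.97 for those of the WT list and -0.14 for those of both. For all Rpb2 peaks, the same medians were 0.51, -0.89 and -0.17. A peak of 1 list was chosen by its reads in that genotype, so its sign is no independent result. Over all deep intronic peaks the median was 0.27 and over all Rpb2 peaks 0.04. The share of higher peaks among those with an unadjusted p under 0.05 was 67.8% and depended on the scaling, since it was 87.9% with the total reads of the library, where the median of all Rpb2 peaks was 0.37, and 51.2% with a fit over deep intronic peaks alone. Among peaks of both lists, 14 were higher and 35 lower.

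**Figure D5:**
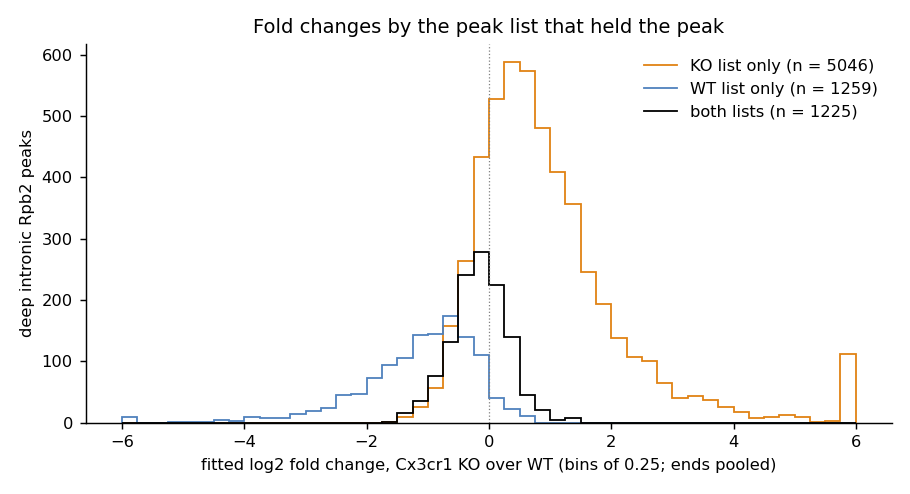
Number of deep intronic Rpb2 peaks (vertical axis) by fitted log2 fold change of KO over WT (horizontal axis, bins of 0.25 with both ends pooled), for peaks of the KO list only, the WT list only and both lists. The 3 distributions have medians of 0.70, -0.97 and -0.14.

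The 10 deep intronic peaks of lowest p whose pools did not overlap between genotypes included 7 that were lower and 3 that were higher in KO microglia. None passed the adjustment (edgeR adjusted p between 0.162 and 0.198). Pools did not overlap at 3930 deep intronic peaks (52.2%) and at 47.4% of all Rpb2 peaks. The *Sult6b1* peak (chr17:78891226-78891446) held 24 and 68 reads in WT pools and 2 and 0 in KO pools, a ratio of 0.00904 (95% counting interval 0.00108 to 0.0336) in CPM. A peak in intron 24 of *Dock8* (chr19:25147043-25147313) held 20 and 30 reads in WT pools and 0 in both KO pools, at least 40.1-fold lower in KO against a floor of 3 reads over the KO group. Such bounds leave out the counting error of the genotype that was read, and with both the 95% counting interval of the *Dock8* ratio ran from 0 to 0.0318. In both, all WT pools were above all KO pools, which the choice of peaks with pools apart required.

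The *Nsd1* peak (chr13:55275849-55276172, intron 9), in the gene of a histone H3K36 methyltransferase, held 20 and 21 reads in WT pools and 0 in both KO pools, at least 32.9-fold lower, and the *Zfp839* peak (chr12:110856045-110856337), in a zinc finger gene, held 15 and 25 against 0 and 0, at least 32.1-fold lower. WT pools had 27 and 34 reads in the *Fam102b* peak against 2 and 0 in KO pools, a ratio of 0.0136 (95% counting interval 0.00162 to 0.0514). The *Abca9* peak, in an ABC transporter gene, had 42 and 26 against 0 and 2, a ratio of 0.0122 (0.00145 to 0.0459). The *Myo1f* peak (chr17:33592649-33593045), in the gene of a leukocyte myosin, was read in every pool, 54 and 71 times for WT against 37 and 9 times for KO. Its log2 fold change was -3.06 ± 0.60 (SE). All of these 7 peaks were of the WT list only.

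The 3 peaks that were higher in KO pools had no read in WT pools and were of the KO list only. The *Orc3* peak (chr4:34583511-34583768) held 95 and 58 reads in KO pools, at least 21.2-fold higher against a floor of 3 reads over the WT group, and the 95% counting interval of its ratio began at 17.05. A peak in intron 11 of *Ptprj*, which encodes a receptor tyrosine phosphatase, held 98 and 50 reads, at least 20.5-fold higher, and one in intron 6 of *Runx1*, the gene of a blood cell transcription factor, held 98 and 48, at least 20.2-fold higher. None of the 3 overlapped H3K27Ac. In all, 111 deep intronic peaks (1.47%) held no read in either WT library and all were of the KO list, with 32.4% overlapping H3K27Ac. Another 5 (0.0664%) held no read in either KO library, and all were of the WT list. The WT libraries were shallower (11662185 and 13653287 reads) than the KO libraries (44332626 and 16528108 reads). The part of depth in these counts was not tested, and the share over all Rpb2 peaks was not counted.

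None of the 7 gene lists had a deep intronic peak past the adjustment. The median log2 fold change was 0.05 over the 304 peaks of homeostatic genes, with 13 higher and 18 lower at an unadjusted p under 0.05 (10.2%, where all deep intronic peaks gave 14.2% and all Rpb2 peaks 12.2%). It was 0.40 over the 260 peaks of myeloid transcription factors, with 36 higher and 12 lower (18.5%), and 0.40 over the 286 of phagocytosis and the cytoskeleton, with 28 and 15 (15.03%). It was 0.31 for endosome and lysosome (17 and 6, 10.95%), 0.27 for TGF-beta receptors and SMADs (8 and 4, 9.6%), 0.21 for immune receptor signalling (26 and 4, 12.9%), and 0.57 for other cells of the brain or blood (2 and 0 of 10 peaks). Over peaks of both lists, the medians of the first 6 lists lay between -0.37 and -0.03.

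The share of all Rpb2 peak reads that fell in deep intronic peaks was higher in both KO pools than in both WT pools. It was 16.2% and 15.8% in WT (labelled female, male) and 17.7% and 17.95% in KO, which is 16.04% ± 0.285 (SD, n = 2) in WT and 17.8% ± 0.201 (SD, n = 2) in KO. The difference was 1.77 percentage points, and a two-sided exact permutation test of 2 against 2 pools gives p = 0.3333 and cannot go lower. Since 67.0% of these peaks were in the KO list only, against 35.9% of peaks within 1000 bp of a TSS, more of them entered by their reads in KO, and the difference is a description with no independent support. For each read within 1000 bp of a TSS, deep intronic peaks held 0.272 ± 0.00856 reads in WT and 0.319 ± 0.00483 in KO (SD, n = 2 each, exact permutation p = 0.3333). Restricted to peaks of both lists, WT pools gave 9.94% and 9.83% and KO pools 10.2% and 10.1%, and the difference was 0.256 percentage points.

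To ask this gene by gene, the reads of deep intronic peaks were set against the promoter reads of the same host in 1 model. Among 1653 genes, none passed (0% called by edgeR), and the lowest adjusted p was 0.112. At an unadjusted p under 0.05 there were 280 genes (16.9%), 243 with relatively more intronic reads in KO and 37 with fewer, and the median log2 difference was 0.42. Most deep intronic peaks were in the KO list only, chosen by their reads in KO, so this balance is no independent result. Its cause was not tested. With each region scaled separately, 136 genes had relatively more and 97 fewer, and the median was 0.03. DESeq2 called 58 genes. Without the library labelled WT female 253 genes were called, without the WT male 228, and without either KO pool 0.

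The same model on peaks of both lists alone, an alternative added after seeing the data, held 423 genes. Their median log2 difference was 0.00, with 26 genes higher in KO and 16 lower at an unadjusted p under 0.05, and 6 genes (1.42%) passed an adjusted p of 0.05, all with relatively more intronic reads in KO. One was *Irf8*, the gene of a transcription factor required for microglia, with 40 and 48 intronic reads against 478 and 669 promoter reads for WT, and 268 and 104 against 1323 and 488 for KO. That is 0.0837 and 0.0717 intronic reads per promoter read in WT pools and 0.203 and 0.213 in KO pools, a log2 difference of 1.42 ± 0.40 (SE, edgeR adjusted p = 0.0376). *Dagla*, the gene of a lipase that makes an endocannabinoid, had ratios of 1.46 and 1.39 in WT pools and 15.6 and 5.12 in KO pools (edgeR adjusted p = 0.000194). Here too the promoter level was lower in KO (9.09 and 7.98 CPM in WT pools, 1.29 and 4.42 in KO pools). The intronic level was higher (13.3 and 11.1 CPM in WT pools, 20.0 and 22.6 in KO pools). The others were *Slc24a3*, *Rere*, *Clasp2* and *Rnf216*, with log2 differences of 1.23 to 2.44. Promoter CPM was lower in both KO pools than in both WT pools for *Slc24a3*, *Rere* and *Rnf216*, and overlapped for *Clasp2*. In the model over all peaks the adjusted p of these 6 genes lay between 0.112 and 0.172. In both models, edgeR shares its estimate of spread between genes, so the adjusted p values do not measure each gene's own spread alone.

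The 5 genes of lowest p all had an adjusted p of 0.112 in edgeR and 1 to 3 deep intronic peaks each. *Tfeb*, the master regulator of lysosome genes, had 54 and 111 intronic reads for WT against 582 and 297 for KO over 3 peaks, and 45 and 123 promoter reads against 54 and 37, which is 1.2 and 0.902 reads per promoter read for WT pools and 10.8 and 8.03 for KO pools, a log2 difference of 3.17 ± 0.59 (SE). Its intronic level was higher in KO (4.63 and 8.13 CPM in WT pools, 13.1 and 17.97 in KO pools) and its promoter level was lower (3.86 and 9.01 CPM in WT pools, 1.22 and 2.24 in KO pools). *Tab2*, an adaptor of the kinase TAK1, had 0 and 2 intronic reads for WT against 74 and 29 for KO, a ratio of 44.5 relative to its promoter (95% counting interval 11.9 to 374), and the elongation factor gene *Eloa* 0 and 0 against 52 and 72, at least 20.1-fold higher relative to its promoter against a floor of 3 reads. *Rps6kc1*, of the S6 kinase family, went the other way, with 14 and 13 against 0 and 0, at least 27.9-fold lower, and so did *Fam117b*, with 0.0596 and 0.0613 reads per promoter read in WT and 0.00406 and 0.0103 in KO.

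Acetylation at these introns gave no call between genotypes. None of the 2990 H3K27Ac peaks that overlapped a deep intronic Rpb2 peak passed an adjusted p of 0.05 in the fit over 55798 H3K27Ac peaks, of which 0.0233% were called, and the lowest adjusted p among them was 0.607 (edgeR). At an unadjusted p under 0.05 there were 108 (3.61%), 84 higher and 24 lower in KO, against 4.95% of all H3K27Ac peaks. DESeq2 called 6 (0.201%, against 0.43% of all H3K27Ac peaks). In simulated data, this fit called more unchanged H3K27Ac peaks than its adjusted p allows, so counts of calls are uncertain. The WT female library was weakly enriched. Its median level in these peaks was 1.84 RPKM, against 8.40 for the WT male and 8.84 and 8.23 for the KO pools. Without it 65 peaks were called (2.18% against 1.53% of all), 26 of them higher in KO, and without the WT male 890 were called (29.8% against 14.8%), 868 of them higher. Calls among these peaks numbered 0 without the KO female (0.00364% of all), without the KO male (0.0109%), and with at least 10 reads in every library (0.00408%). The part of the WT female library in these counts was not tested further.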

How the data were processed

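ChIP-seq was done by the authors for Rpb2 and H3K27Ac. Per the labels and methods, single-end reads of 51 bases were placed on mm10 by the authors (Bowtie 2), and only those with a unique position were used. HOMER peaks reproducible between pools formed a WT and a KO list, which were merged. The deposited tables give, for every merged peak, the counts of reads in each library, which the authors did not normalize. The 4 input libraries were not analysed here, and the number of columns of other samples left unused was 0.

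The test was the quasi-likelihood F test of edgeR (version 4.0.16, R 4.3.3) with TMM factors and genotype as the only term, on every peak whose mean reached 4 reads in WT or in KO. CPM and RPKM were scaled to the total reads of the library that the table header gives. The host was the gene of the annotated transcript in RefSeq (GRCm38.p6). For 8 peaks the transcript had no entry there, and for 40 its gene lay elsewhere. Overlap needed 1 bp. P-values measure the spread between pools. In edgeR and DESeq2, that spread is estimated with information shared over peaks or genes, so it is not each one's own. Intervals and the floor of 3 reads over a group cover counting error only. Sequences were read from GRCm38.p6 after chromosome lengths were checked, and starts and short RNA genes from GENCODE vM21.

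Named were the 8 peaks of highest mean CPM, the 10 of lowest p with pools apart, the 6 hosts with the most peaks (7 with a tie), up to 4 hosts per gene list, the 5 genes of lowest p against the promoter, and *Cx3cr1*. Members and lists were chosen with earlier results of these data known. Python 3.11.15, pandas 2.3.3 and SciPy 1.17.1 were used for the rest, and DESeq2 1.42.0 as an alternative. Each fit was tested on simulated data, where the H3K27Ac fit called more unchanged peaks than its adjusted p allows. A marker gene that was examined is not reported here.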

Additional observations from a re-analysis of the deposited data

How the results depend on the processing

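No deep intronic Rpb2 peak was called with TMM, DESeq2 size factors, total reads, no filter, the LTR peaks kept, a distance over 10000 bp, a fit over deep intronic peaks alone, or peaks of both lists (the last added after seeing the data). DESeq2 called 329 (4.37%, against 3.83% of the whole table) and the newer quasi-likelihood method 94 (1.25%, against 1.02%). A minimum of 10 reads in every library called 6, all lower in KO, among the 4386 peaks it left (0.137%, against 0.151% of the whole table). Leaving out 1 pool gave 0 to 902 calls. For H3K27Ac peaks at these introns, DESeq2 called 6 and leaving out 1 pool gave 0 to 890. For intronic against promoter reads, DESeq2 called 58, a minimum of 10 reads 11, peaks of both lists alone (added after seeing the data) 6, and leaving out 1 pool 0 to 253. With sex as labelled as a replicate block, the 3 counts were 0, as without it. Deviations of same-labelled pools had a correlation of -0.0031 over deep intronic Rpb2 peaks and 0.0718 over the H3K27Ac peaks at them. Since the label of the WT female Rpb2 library is doubtful, these values cannot show whether gender has a shared effect. The cause of the differences in calls between settings was not tested. Fewer peaks entered under the stricter minimum and in both lists, and without a WT pool the spread came from KO pools alone.

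The 10 named peaks and 5 named genes kept their direction wherever they could be fitted. The 10 peaks were chosen with pools apart, so their kept direction is no independent result. With at least 10 reads in every library, none of these peaks and only 1 of the 5 named genes could be fitted. The share of Rpb2 peak reads in deep introns stayed higher in KO under every alternative, by 1.24 points beyond 10000 bp and 0.256 in peaks of both lists, with 1.57 to 1.97 when 1 pool was left out, and so did the ratio to promoter reads (by 0.00495 to 0.0675). The share of deep intronic peaks that overlap H3K27Ac, 65.3%, was 62.9% when 50% of the peak had to overlap, 59.5% with H3K27Ac peaks of both lists, and 60.8% beyond 10000 bp from a TSS. The ratio of Rpb2 levels with and without H3K27Ac, 1.85, was 2.35 in peaks of both lists and 1.77 to 1.94 when 1 pool was left out.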
